A study of Mus musculus with 8 samples.

Results

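Heat shock proteins, their co-chaperones and the subunits of the cytosolic chaperonin were followed in mouse CD8+ T cells as 33 named genes, chosen by family. Of these, 30 had at least 1 probe set annotated to them alone, out of 18194 genes named on the array. Each was represented by the probe set with the highest mean intensity over the arrays. Hsp90ab1 and Hsf1 were not analysed here, and Ptges3 was read only by probe sets shared with its pseudogene and was not analysed either. The cells were CD8+ T cells purified from mouse spleen, from wild-type C57BL/6 mice or from Elf4-/- mice, which lack the ETS-family transcription factor ELF4. They were profiled untreated, called naive here, or after stimulation for 3.5 days, called activated. Stimulation was by plate-bound antibody to CD3 plus soluble anti-CD28, in RPMI medium containing serum and T-stim. There were 2 arrays for each genotype in each state. Whether the 2 came from separate animals or cultures is not stated in the labels, so p-values cover the spread between these samples alone, and that spread may be technical.

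Heat shock proteins bind unfolded protein and, at the expense of ATP, release it folded or pass it on. HSP70 proteins take clients from DNAJ partners and are recharged by HSP110 and BAG exchange factors, HSP90 finishes kinases and hormone receptors with its own co-chaperones, and the CCT chaperonin folds actin and tubulin inside a closed double ring. Heat shock factors bind alternating GAA and TTC units in promoters and raise these genes under stress. T cells enlarge and divide after antigen receptor stimulation, and protein synthesis rises with that.

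Measurements were Affymetrix intensities on a linear scale, scaled by the authors so that each array had a 2% trimmed mean of 500; array medians lay between 64.1 and 86.2. Intensities of different probe sets are not on 1 scale per transcript, so levels are compared between arrays and not between genes. Elf4 itself read 116 and 199 on the naive wild-type arrays, 165 and 192 on the naive knockout arrays, 83.6 and 134 on the activated wild-type arrays and 76.2 and 80.6 on the activated knockout arrays. The part of Elf4 removed in the knockout and the place of its probes are not given in the sources used here, so Elf4 gives no check of the labels, and genotypes are those of the labels. Of 10 markers of CD8+ T cells 8 were measured, and these 8 were at or above the array median on all 4 naive arrays; Cd4 was at most 43.1 on the 8 arrays. The states differed in more than stimulation. Intensities of Xist, the RNA of the silenced X chromosome in females, lay between 60.3 and 172 on naive and between 7703 and 10011 on activated arrays. Those of Y-linked Eif2s3y lay between 2537 and 5146 on naive and between 2.93 and 44.0 on activated arrays. The Actb 3'/5' signal ratio, a measure of RNA integrity and labelling, lay between 1.96 and 2.50 on naive and between 5.90 and 11.1 on activated arrays. Stimulation, sex of the animals and this ratio cannot be told apart in any comparison of activated with naive cells. The Actb ratio also separated the genotypes within each state. Naive knockout arrays had ratios of 1.99 and 1.96, below the 2.13 and 2.50 of naive wild-type arrays. Activated knockout arrays had 7.44 and 11.1, above the 5.98 and 5.90 of their wild-type counterparts. The part of the Actb ratio in the genotype comparisons was not tested. The summed intensity of the CD8+ T cell markers lay between 91922 and 119913 on naive and between 28339 and 37419 on activated arrays. That of 5 platelet markers lay between 405 and 568 on naive and between 3360 and 4281 on activated arrays. Pf4 was at most 169 on naive and at least 2316 on activated arrays, and Ppbp at most 48.3 and at least 622. Itga2b differed less, and Gp9 and Gp1bb overlapped between the states. The part of these marker differences in the results was not tested.

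Most of the chaperone genes rose on activation in both genotypes. In wild-type cells 23 of the 30 were higher and 2 were lower at an adjusted p under 0.05 (limma, Benjamini-Hochberg adjustment over all tested probe sets). Over 12782 genes the background was 21.3% higher and 24.1% lower, against 76.7% and 6.67% of the chaperone genes. In knockout cells 22 were higher and 1 was lower, which is 73.3% and 3.33% against a background of 21.9% and 26.1%. The median log2 change was 0.80 in wild type and 1.04 in knockout, while that of all genes tested was -0.12 in each. All 30 probe sets passed the filter on dim signals. A set of 22 genes was higher in both genotypes, namely Hspa1a, Hspa1b, Hspa8, Hspa4, Hsph1, Hsp90aa1, Stip1, Ahsa1, Dnaja1, Dnaja2, Bag1, Hspa9, Hspd1, Hspe1 and the 8 chaperonin subunit genes. By its brightest probe set Cdc37 was lower in both, and Hspb1, Dnajb1, Bag3, Hsf2 and Fkbp4 passed the threshold in neither. Values are intensities summed over whatever cells a sample held, so fewer cells of a type and less RNA per cell cannot be told apart.

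**Figure D1:**
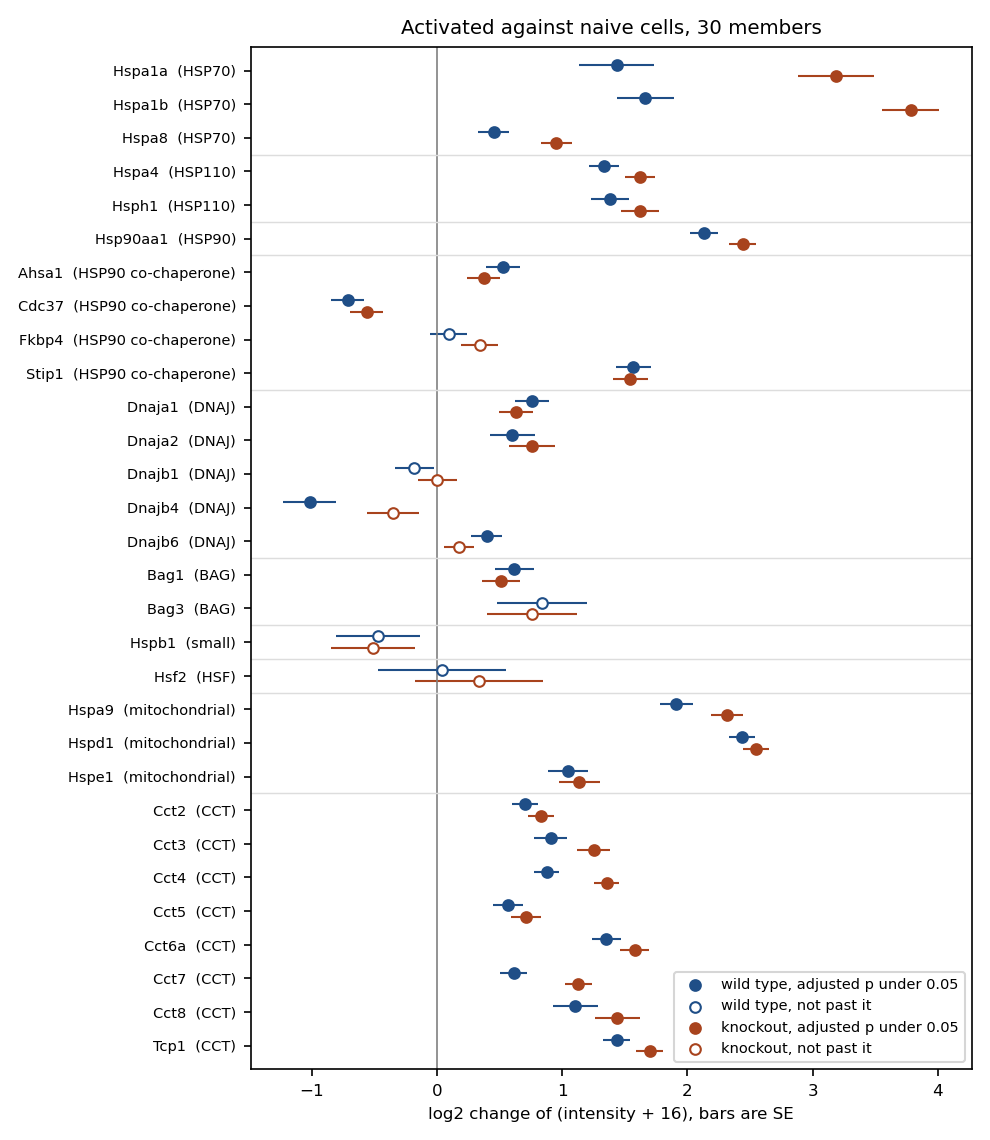
Log2 change of activated over naive cells for the 30 chaperone genes, by family, in wild type (blue) and knockout (orange). Points are limma estimates from 2 arrays a group on the log2(intensity + 16) scale, bars are standard errors, and filled points passed an adjusted p of 0.05. The inducible HSP70 genes Hspa1a and Hspa1b lie farthest apart between the genotypes, and the filled points left of zero are Cdc37 in both genotypes and Dnajb4 in wild type.

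The stress-inducible HSP70 genes Hspa1a and Hspa1b gave the changes that differed most between the genotypes. The genes are neighbours on chromosome 17 and encode nearly the same protein. Their promoters are shown because both genes moved alike and because each carries the same pair of heat shock element units. The RefSeq sequences (GRCm38.p6, minus strand) cover the 250 bases before each start, at chr17:34972157-34972406 for Hspa1a and chr17:34959239-34959488 for Hspa1b, with the match to GAANNTTC in capitals.
Hspa1a: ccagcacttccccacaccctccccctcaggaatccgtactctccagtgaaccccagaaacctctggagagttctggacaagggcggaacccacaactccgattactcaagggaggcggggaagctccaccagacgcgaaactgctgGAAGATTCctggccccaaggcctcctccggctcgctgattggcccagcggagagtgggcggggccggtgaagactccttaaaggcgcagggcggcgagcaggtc
Hspa1b: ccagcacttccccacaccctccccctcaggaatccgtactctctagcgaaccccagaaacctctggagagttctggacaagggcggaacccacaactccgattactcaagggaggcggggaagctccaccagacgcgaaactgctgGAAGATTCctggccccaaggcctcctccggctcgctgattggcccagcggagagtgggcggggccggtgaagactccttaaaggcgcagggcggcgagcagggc
The windows are identical at 247 of 250 bases, and the capitals begin 104 bases before the start in each.

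The brightest Hspa1b probe set read 738 and 483 on the naive wild-type arrays, 195 and 246 on the naive knockout arrays, 1739 and 2136 on the activated wild-type arrays and 3359 and 3079 on the activated knockout arrays. The 4 groups did not overlap, with the knockout at the bottom among naive arrays and at the top among activated ones. In naive cells the mean was 610 ± 181 (SD, n = 2) in wild type and 220 ± 35.7 (SD, n = 2) in knockout, 2.77-fold lower in the knockout. The log2 change was -1.38 (SE 0.23) with an adjusted p of 0.0299 (limma). It was the only one of the 30 genes to pass in naive cells, against backgrounds of 0.477% higher and 0.36% lower over all genes tested. The call depended on the fit. The value stayed negative in 18 of 18 alternatives, from -1.68 to -1.09, but passed the threshold in 7 of them, with adjusted p (limma) between 0.00859 and 0.437. Leaving out any 1 of the arrays other than naive wild-type replicate 2 ended the call. The adjusted p (limma) was 0.0663 without naive wild-type replicate 1, and 0.0668 and 0.0871 without naive knockout replicates 1 and 2. It was 0.0899 and 0.0883 without activated wild-type replicates 1 and 2, and 0.0926 and 0.0898 without activated knockout replicates 1 and 2.

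Hspa1a read 190 and 145 on the naive wild-type arrays, 40.6 and 72.3 on the naive knockout arrays, 443 and 512 on the activated wild-type arrays and 634 and 621 on the activated knockout arrays. The order of the 4 groups was that of Hspa1b, again without overlap. Its naive log2 change of -1.37 (SE 0.30) had an adjusted p of 0.0981 (limma) and passed in 0 of 18 alternatives. Both other Hspa1b probe sets were dimmer and read lower in the naive knockout as well, by log2 changes of -1.20 and -0.85 with adjusted p of 0.0754 and 0.257 (limma). Whether a probe set of 1 of these genes also binds RNA of the other was not tested.

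Both genes were higher on activated than on naive arrays. Hspa1b rose 3.17-fold in wild type, a log2 change of 1.66 (SE 0.23, adjusted p 0.000184, limma), and 14.6-fold in knockout, a log2 change of 3.78 (SE 0.23, adjusted p 4.94e-07). Hspa1a rose 2.85-fold in wild type (adjusted p 0.00315, limma) and 11.1-fold in knockout (adjusted p 1.13e-05). All 4 of these calls passed in every alternative. The naive knockout readings of Hspa1a, 40.6 and 72.3, were dim beside medians of 75.5 and 70.7 on those arrays. Its 11.1-fold rise and its naive genotype change rest on these dim readings. The difference between the genotypes in the rise of each gene was tested directly. For Hspa1b it was 2.12 on the log2 scale (SE 0.32) with an adjusted p of 0.0558 (limma), just outside the threshold. It passed in 4 of 17 alternatives: an offset of 64 (0.0488), without probe sets that may cross-hybridise (0.0486), and without naive wild-type replicate 1 (0.0463) or 2 (0.00923). For Hspa1a it was 1.75 (SE 0.43, adjusted p 0.189). Among activated cells alone, Hspa1b was 0.73 higher in the knockout (SE 0.23, adjusted p 0.266). Its wild-type and knockout arrays did not overlap in that state.

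The naive arrays of the genotypes also differed in markers of other cells. Summed over 9 granulocyte markers, the naive wild-type arrays gave 505 and 880 and the naive knockout arrays 4714 and 19596. Of these markers, Mpo, Elane and Csf3r overlapped between the genotypes, and Csf3r was 100 and 192 against 66.5 and 118. The sum of 6 macrophage and monocyte markers was 1856 and 2317 against 3422 and 5728. Of these, Cd68 and Cd14 overlapped between the genotypes. That of 3 NK cell markers was 156 and 320 against 1055 and 1120. The NK cell difference came from Klra8 and Klre1, and Ncr1 was dim and overlapped. The B cell sum over 8 markers was 5437 and 4385 against 4372 and 11564. The 8 CD8+ T cell markers summed to 119913 and 112062 against 100460 and 91922. On activated arrays the granulocyte sum lay between 229 and 577. The naive knockout array with the higher granulocyte sum had the higher of the pair of knockout Hspa1b values. A pair of arrays is too few to show whether the granulocyte sum and Hspa1b go together. The part of these cells in the naive Hspa1b difference was not tested.

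**Figure D2:**
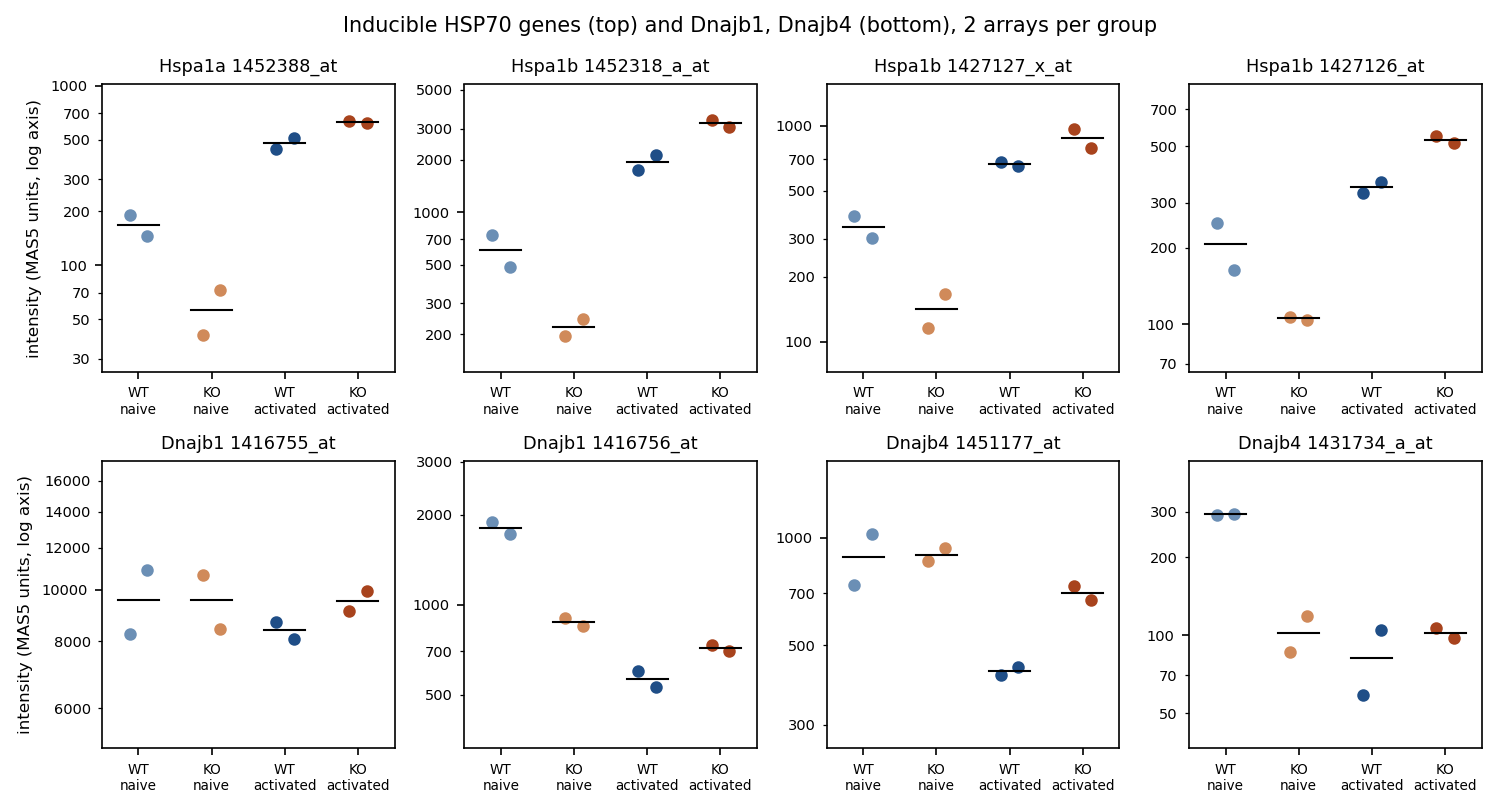
Intensity on each array, on a log axis, of the Hspa1a probe set, 3 Hspa1b probe sets and the 2 brightest probe sets of Dnajb1 and of Dnajb4. Points are arrays and lines are means of 2 arrays. The naive knockout arrays lie lowest in all 4 HSP70 panels, and the activated knockout arrays highest.

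The constitutive HSP70 gene Hspa8, which folds new proteins in unstressed cells, changed less. Its brightest probe set read 36215 and 41483 on the naive wild-type arrays, 35115 and 29170 on the naive knockout arrays, 55725 and 50618 on the activated wild-type arrays and 57772 and 66456 on the activated knockout arrays. Every activated array was above every naive one, while the genotypes came apart in either state without a call. The rise was 1.37-fold in wild type (log2 change 0.45, SE 0.12, adjusted p 0.0139, limma) and 1.93-fold in knockout (log2 change 0.95, SE 0.12, adjusted p 0.000116). The wild-type call was lost without naive wild-type replicate 1 (adjusted p 0.103, limma) or activated wild-type replicate 1 (0.12), and with eBayes without a trend (0.129). This probe set is of a kind that may cross-hybridise. Without such probe sets the wild-type value was 0.33 (adjusted p 0.141), and with the mean over all Hspa8 probe sets it was -0.094 (adjusted p 0.505). A dim Hspa8 probe set moved the other way in wild type, from 419 and 362 to 136 and 178, a log2 change of -1.24 (adjusted p 0.00462). In knockout it read 320 and 255 before and 229 and 292 after activation (log2 change -0.14, adjusted p 0.735).

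The HSP110 genes Hspa4 and Hsph1, nucleotide exchange factors of HSP70, rose in both genotypes. Hsph1 read 3277 and 4301 on the naive wild-type arrays, 3965 and 3268 on the naive knockout arrays, 10045 and 9566 on the activated wild-type arrays and 11049 and 11175 on the activated knockout arrays. The naive genotypes overlapped, and every activated array lay far above every naive one. The rise was 2.59-fold in wild type (log2 change 1.38, adjusted p 3.95e-05, limma) and 3.07-fold in knockout (1.62, adjusted p 1.07e-05). Hspa4 rose 2.53-fold and 3.08-fold, from 6099 ± 123 to 15433 ± 703 in wild type and from 4768 ± 447 to 14701 ± 898 in knockout (SD, n = 2). The Hsph1 promoter is shown because its pair of heat shock element units lies close to the start, beginning 33 bases before it. The window is chr5:149636337-149636586 (RefSeq, GRCm38.p6, minus strand), with the match to TTCNNGAA in capitals.
Hsph1: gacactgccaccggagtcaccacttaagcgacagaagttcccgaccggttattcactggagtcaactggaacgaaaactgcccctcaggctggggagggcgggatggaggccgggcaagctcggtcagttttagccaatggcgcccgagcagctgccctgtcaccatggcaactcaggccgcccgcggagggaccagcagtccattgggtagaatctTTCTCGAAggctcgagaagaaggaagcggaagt
Both genes were called higher in both genotypes, and no match was found in the Hspa4 window.

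The inducible cytosolic HSP90 gene Hsp90aa1 was among the strongest risers. It read 8844 and 7952 on the naive wild-type arrays, 7673 and 8040 on the naive knockout arrays, 35176 and 38602 on the activated wild-type arrays and 41508 and 43989 on the activated knockout arrays. The naive genotypes overlapped, while the activated knockout arrays lay above the activated wild-type ones. The rise was 4.39-fold in wild type (log2 change 2.13, SE 0.11, adjusted p 1.72e-07, limma) and 5.44-fold in knockout (log2 change 2.44, SE 0.11, adjusted p 6.87e-08). The next 2 probe sets of the gene rose too, by log2 changes of 2.61 and 2.83 for wild-type cells and 3.39 and 2.97 for knockout cells. Over its 5 tested probe sets the lowest change was -0.98 in wild type, not called, and 0.61 in knockout. The genotype difference among activated arrays, 0.21 on the log2 scale, was not past the threshold (adjusted p 0.536).

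The HSP90 co-chaperones split. Stip1, also known as HOP, which hands clients from HSP70 to HSP90, read 1269 and 1369 on the naive wild-type arrays, 1283 and 1370 on the naive knockout arrays, 3950 and 3941 on the activated wild-type arrays and 4090 and 3722 on the activated knockout arrays. Genotypes overlapped in both states and the states were far apart. It rose 2.99-fold in wild type and 2.95-fold in knockout (adjusted p 7.96e-06 and 7.95e-06, limma). Ahsa1, which stimulates the HSP90 ATPase, rose less, by 1.44-fold in wild type and 1.3-fold in knockout (adjusted p 0.00909 and 0.0454). Both of those calls were fragile. A second Ahsa1 probe set had log2 changes of -0.44 in wild type and -0.36 in knockout. With the mean over both probe sets the changes were 0.045 and 0.0087 (adjusted p 0.849 and 0.971, limma). The knockout call for Ahsa1 passed in 6 of 18 alternatives and was lost without either naive knockout array (adjusted p 0.0919 and 0.11, limma) or any activated array (0.0777, 0.0775, 0.141 and 0.165). The wild-type call was lost without naive wild-type replicate 1 (0.0568) or activated wild-type replicate 1 (0.0705).

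Cdc37, the co-chaperone that loads protein kinases onto HSP90, went the other way. It read 4794 and 5547 on the naive wild-type arrays, 4610 and 5000 on the naive knockout arrays, 3164 and 3121 on the activated wild-type arrays and 3384 and 3130 on the activated knockout arrays. Every naive array was above every activated one, with the genotypes overlapping in naive and in activated cells. The log2 change was -0.71 in wild type (SE 0.13, adjusted p 0.00146, limma) and -0.56 in knockout (SE 0.13, adjusted p 0.00597). A second, dim Cdc37 probe set had log2 changes of 0.042 and 0.57 (adjusted p 0.958 and 0.414). With the mean over both, the wild-type value was -0.33 (adjusted p 0.309) and the knockout value 0.0073 (adjusted p 0.984). The knockout call was also lost with each array centred on its median (adjusted p 0.0503, limma), with eBayes without a trend (0.0514) and without activated knockout replicate 2 (0.0558). Fkbp4 encodes an immunophilin that binds steroid receptor complexes with HSP90. Its brightest probe set did not pass in wild type (log2 change 0.09, adjusted p 0.657, limma) or knockout (0.34, adjusted p 0.0871). Its 3 tested probe sets differed, with log2 changes between -0.55 and 0.73 in wild type and between -0.69 and 1.10 in knockout.

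The DNAJ genes, whose products deliver clients to HSP70 and trigger its ATPase, did not move as a block. Of the 5 measured, 3 were higher and 1 lower in wild type, and 2 were higher in knockout. Dnaja1 rose 1.69-fold in wild type and 1.54-fold in knockout (adjusted p 0.00117 and 0.00355, limma). Its knockout call was lost under quantile normalization (adjusted p 0.0909, limma) and with eBayes without a trend (0.052). With the mean over its 3 tested probe sets the wild-type change was 0.27 (adjusted p 0.051, limma). The lowest log2 change of the 3 was -0.082 in wild type and -0.078 in knockout. Dnaja2 rose 1.52-fold and 1.66-fold on its brightest probe set, which read 8088 and 6957 on the naive wild-type, 5837 and 9085 on the naive knockout, 11822 and 10978 on the activated wild-type and 12302 and 12400 on the activated knockout arrays (adjusted p 0.0217 and 0.00597). Every activated array was above every naive one, and the naive knockout pair enclosed the naive wild-type pair. With the mean over all tested probe sets the Dnaja2 changes were 0.19 in wild type and 0.11 in knockout (adjusted p 0.414 and 0.623, limma), and both calls were also lost under quantile normalization (0.0951 and 0.0824). The wild-type call was lost without naive wild-type replicate 2 (adjusted p 0.11, limma), activated wild-type replicate 1 (0.129) or activated wild-type replicate 2 (0.0736). Another Dnaja2 probe set fell in both genotypes, from 2092 and 1541 to 549 and 611 in wild type and from 1745 and 1701 to 525 and 601 in knockout. Its log2 changes were -1.61 and -1.59 (adjusted p 7.31e-05 and 7e-05).

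Dnajb4, which encodes another HSP40 partner of HSP70, fell in wild type. It read 740 and 1026 on the naive wild-type arrays, 860 and 936 on the naive knockout arrays, 412 and 434 on the activated wild-type arrays and 734 and 671 on the activated knockout arrays. The activated wild-type arrays stood below all others. The log2 change was -1.02 in wild type (SE 0.21, adjusted p 0.00268, limma) and -0.35 in knockout (SE 0.21, adjusted p 0.212). The difference of these changes, 0.67, was not past the threshold (adjusted p 0.499). Dnajb6, a suppressor of protein aggregation, passed in wild type (1.32-fold, adjusted p 0.0243) and not in knockout (1.13-fold, adjusted p 0.281). The difference of -0.22 did not pass (adjusted p 0.74). Its log2 change in knockout on this brightest probe set, 0.18, was the lowest of 4 tested probe sets, and the highest was 1.49. In wild type the 4 lay between -0.14 and 1.80. Quantile normalization (adjusted p 0.0544, limma) and eBayes without a trend (0.128) ended the wild-type call. The wild-type Dnajb6 call was lost without naive wild-type replicate 1 (adjusted p 0.111, limma) or either activated wild-type array (0.168 and 0.0636).

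Dnajb1, the main partner of inducible HSP70, depended on the probe set. Its brightest probe set read 8271 and 10896 on the naive wild-type arrays, 10654 and 8446 on the naive knockout arrays, 8707 and 8069 on the activated wild-type arrays and 9107 and 9939 on the activated knockout arrays. The naive pairs overlapped, the activated knockout pair lay above the activated wild-type pair, and the log2 changes on activation were -0.18 in wild type and 0.00 in knockout (adjusted p 0.408 and 0.986, limma). A dimmer probe set read 1889 and 1727 on the naive wild-type arrays, 905 and 850 on the naive knockout arrays, 603 and 531 on the activated wild-type arrays and 736 and 701 on the activated knockout arrays. There the naive wild-type arrays stood above the rest. The naive log2 change of the knockout was -1.03 (SE 0.17, adjusted p 0.0321, limma), and the fall on activation was -1.65 in wild type (adjusted p 2.83e-05) and -0.28 in knockout (adjusted p 0.226). The naive call of this dimmer probe set passed in 6 of 17 alternatives. It was lost when any of the arrays other than naive wild-type replicate 2 was left out, with adjusted p (limma) of 0.0753 without naive wild-type replicate 1, 0.0539 and 0.142 without naive knockout replicates 1 and 2, 0.0909 and 0.0898 without activated wild-type replicates 1 and 2, and 0.0958 and 0.0938 without activated knockout replicates 1 and 2. Its difference between states, 1.37 (SE 0.25), had an adjusted p of 0.0926. The second probe set of Dnajb4 had a naive log2 change of -1.40 with an adjusted p of 0.17.

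Of the BAG genes, Bag1 rose 1.53-fold in wild type and 1.43-fold in knockout (adjusted p 0.00802 and 0.02, limma). Its wild-type call was lost without activated wild-type replicate 1 (0.0691), and its knockout call without naive knockout replicate 1 (0.0865) or either activated knockout array (0.0696 and 0.116). Bag3, a stress-induced exchange factor that routes clients to autophagy, was dim, at 85.1 to 419. Its log2 changes on activation were 0.84 in wild type (SE 0.36, adjusted p 0.0892) and 0.76 in knockout (adjusted p 0.114), and in naive cells the knockout change was 0.86 (adjusted p 0.372). The small heat shock protein gene Hspb1, an ATP-independent holdase, read 178 and 204, 149 and 115, 142 and 124, and 92.4 and 82.8 on the naive wild-type, naive knockout, activated wild-type and activated knockout arrays. The naive wild-type pair was the highest and the activated knockout pair the lowest, the naive knockout pair enclosed the activated wild-type pair, and no comparison passed.

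Hsf2, the heat shock factor measured here, was close to the array median. It read 57.0 and 118 on the naive wild-type arrays, 88.3 and 36.2 on the naive knockout arrays, 79.6 and 92.1 on the activated wild-type arrays and 89.1 and 66.5 on the activated knockout arrays. The naive pairs spread widely and all groups overlapped. The standard error of 0.51 on each log2 change was the largest among the 30 genes, so a change of moderate size was not detectable.

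The chaperones of the mitochondrial matrix rose in both genotypes. Hspd1 encodes HSP60 and read 4938 and 5152 on the naive wild-type arrays, 5220 and 5273 on the naive knockout arrays, 28077 and 26606 on the activated wild-type arrays and 30112 and 31555 on the activated knockout arrays. The 4 naive arrays lay within a narrow band, far below the 4 activated ones. The rise was 5.42-fold in wild type (log2 change 2.43, SE 0.10, adjusted p 6.18e-08, limma) and 5.88-fold in knockout (2.55, SE 0.10, adjusted p 4.28e-08). In wild type it was the largest rise among the 30 genes.

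Hspa9, the mitochondrial HSP70 that pulls imported proteins into the matrix, read 7203 and 6394 on the naive wild-type arrays, 5677 and 7164 on the naive knockout arrays, 25177 and 26011 on the activated wild-type arrays and 31381 and 32275 on the activated knockout arrays. The naive genotypes overlapped and the activated ones did not. It rose 3.76-fold in wild type (adjusted p 1.14e-06, limma) and 4.96-fold in knockout (adjusted p 2.89e-07). Its second probe set rose alike, by log2 changes of 1.92 and 2.10. Over the 4 tested Hspa9 probe sets the lowest change was -0.79 in wild type, not called, and 0.05 in knockout. Hspe1, the HSP10 lid of HSP60, rose 2.05-fold and 2.2-fold on its brighter probe set (adjusted p 0.000413 and 0.000206). A dimmer Hspe1 probe set, free of the suffix that marks possible cross-hybridisation, rose by 0.28 and 0.40 on the log2 scale without passing (adjusted p 0.293 and 0.127 when used alone).

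Hspe1 and Hspd1 lie head to head on chromosome 1 and share a promoter. Their 300-base RefSeq windows overlap by 285 bases on opposite strands. The Hspe1 side is shown because it holds 4 alternating heat shock element units in a row. It is chr1:55087898-55088147 (GRCm38.p6, plus strand), with the units in capitals. The match nearest to the start begins 79 bases before it.
Hspe1: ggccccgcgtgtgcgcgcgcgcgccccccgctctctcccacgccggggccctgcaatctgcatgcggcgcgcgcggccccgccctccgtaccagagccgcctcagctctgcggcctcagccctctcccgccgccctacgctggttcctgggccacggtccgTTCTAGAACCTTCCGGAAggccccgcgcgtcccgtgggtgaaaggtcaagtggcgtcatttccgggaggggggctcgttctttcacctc
This stretch gave 3 overlapping matches to the motif of 2 units and 2 to that of 3.

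The 8 subunit genes of the cytosolic chaperonin rose by their brightest probe sets. All 8 were higher on activation in wild type, with log2 changes of 0.57 to 1.44 and a median of 0.89, and all 8 were higher in knockout, with 0.71 to 1.70 and a median of 1.30 (limma, adjusted p under 0.05 in each). Tcp1, the alpha subunit, read 11697 and 12296 on the naive wild-type arrays, 10967 and 11121 on the naive knockout arrays, 33223 and 31720 on the activated wild-type arrays and 33451 and 38553 on the activated knockout arrays. The knockout arrays lay below the wild-type arrays when naive and above them when activated, with gaps between the nearest arrays of the genotypes smaller than the difference within the wild-type pair. Neither genotype difference passed (adjusted p 0.736 and 0.707, limma). It rose 2.71-fold and 3.26-fold (adjusted p 2.27e-06 and 6.58e-07).

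Cct6a, the zeta subunit, rose 2.55-fold in wild type, from 10961 ± 1240 to 27979 ± 1513, and 2.99-fold in knockout, from 11087 ± 709 to 33106 ± 2.1 (SD, n = 2). Cct8, the theta subunit, rose 2.15-fold and 2.65-fold, and Cct3, the gamma subunit, 1.88-fold and 2.37-fold. Cct2, the beta subunit, rose 1.63-fold and 1.78-fold, and Cct5, the epsilon subunit, had the smallest change of the 8 at 1.48-fold and 1.64-fold. With the mean over all tested probe sets of a gene, the wild-type calls of Cct3 (0.14, adjusted p 0.467, limma) and Cct7 (0.024, adjusted p 0.862) were lost, and that of Cct5 was lost with eBayes without a trend (adjusted p 0.0577). The naive levels of the genotypes overlapped for Cct5, Cct6a and Cct8.

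Cct4, the delta subunit, read 17171 and 17106 on the naive wild-type arrays, 14878 and 15129 on the naive knockout arrays, 30547 and 32484 on the activated wild-type arrays and 36578 and 40323 on the activated knockout arrays. Cct7, the eta subunit, read 12970 and 14262 on the naive wild-type arrays, 11047 and 10815 on the naive knockout arrays, 21453 and 20190 on the activated wild-type arrays and 22806 and 25068 on the activated knockout arrays. In both genes the knockout was the lower genotype when naive and the higher when activated, with no overlap. Neither passed. The difference of the rises was 0.48 for Cct4 (SE 0.14, adjusted p 0.277, limma) and 0.51 for Cct7 (SE 0.15, adjusted p 0.275). Over the 8 subunit genes the difference of the rises lay between 0.13 and 0.51 with a median of 0.30, beside -0.03 over all genes, and 0 of 8 passed. The 8 genes share the same 8 arrays and are not independent of each other. Over the whole list of chaperone genes the median difference of the rises, 0.23, depended on the scaling. It was 0.16 with each array centred on its median and 0.027 under quantile normalization. Quantile normalization left the median over all tested probe sets at -0.023, from -0.024. Whether the differences of the subunit genes alone depend on the scaling was not tested.

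**Figure D3:**
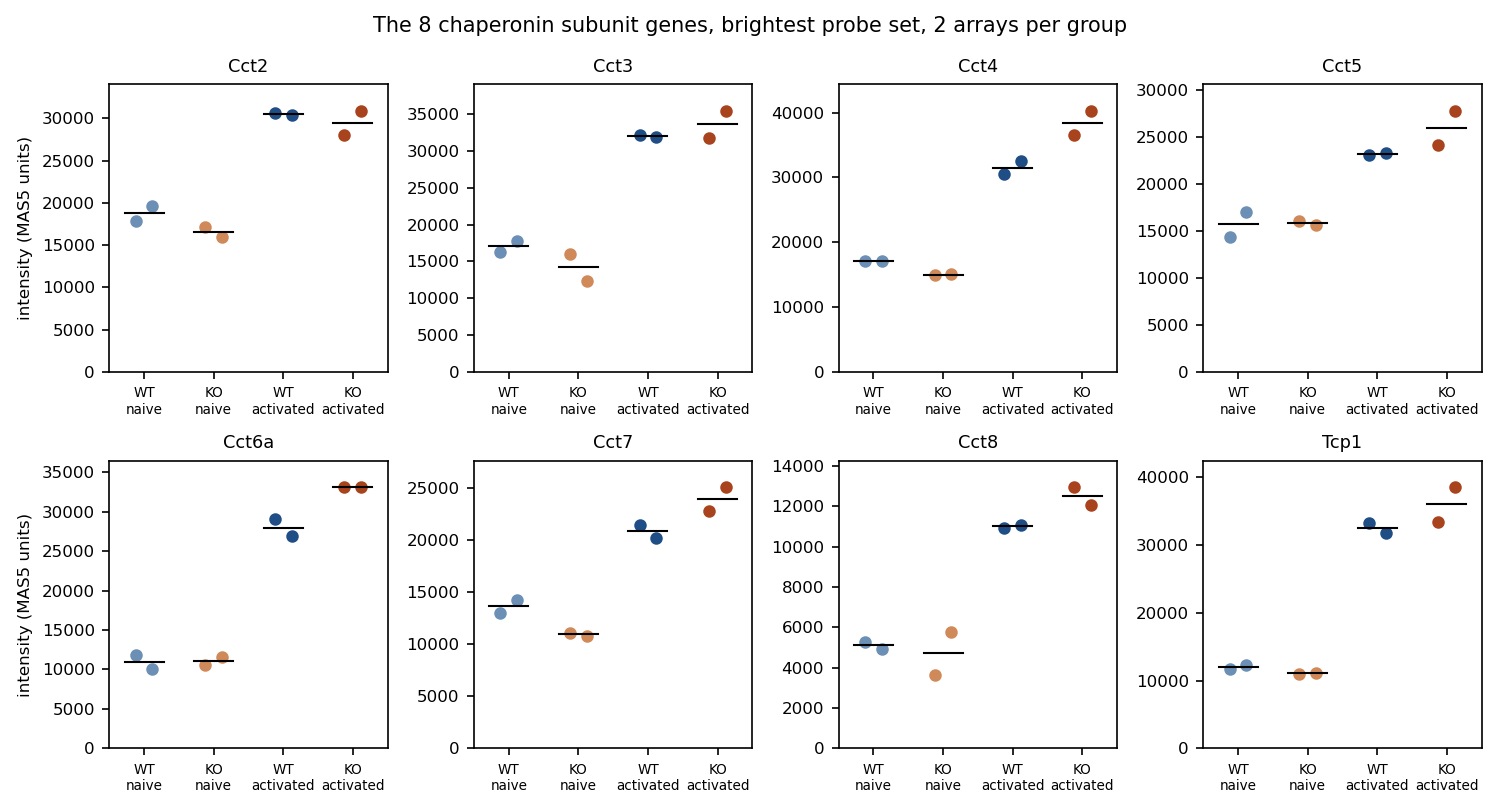
Intensity of the brightest probe set of each of the 8 chaperonin subunit genes on each array, on linear axes from 0. Points are arrays and lines are means of 2 arrays. In every panel the 4 activated arrays lie above the 4 naive arrays.

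Genotype alone moved few of these genes. In naive cells 1 of 30 passed, Hspa1b, lower in the knockout, and 6 had an unadjusted p under 0.05, namely Hspa1a, Hspa1b, Hspa4, Hspa8, Bag3 and Cct7, which is 20% beside 14% of all genes. Without Hspa1a and Hspa1b there were 4 of 28, or 14.3%. The median log2 change was -0.09, beside 0.02 over all genes, and -0.08 without Hspa1a and Hspa1b. It depended on the scaling, at -0.02 under quantile normalization and 0.012 with each array centred on its median, so the list as a whole had no settled direction in naive cells. By probe set, 2 of 76 were lower and 0 higher, where the background over all 27348 tested probe sets was 0.563% in either direction. In activated cells 0 of 30 passed (limma) and 4 had an unadjusted p under 0.05, Hspa1b, Hspa9, Dnajb4 and Cct4, all higher in the knockout. That is 13.3% beside 12.6% of all genes. At the adjusted threshold the background there was 0.125% higher and 0.164% lower. The median log2 change was 0.18, beside -0.01 over all genes, and 0.051 under quantile normalization. For the difference of the genotype effect between states 0 of 30 passed (limma), where the background was 0.0391% higher and 0.0469% lower. At an unadjusted p under 0.05 there were 6, or 20% beside 11.6% of all genes. Those 6 were Hspa1a, Hspa1b, Hspa8, Dnajb4, Cct4 and Cct7, all with a positive difference. Leaving out Hspa1a and Hspa1b, there were 4 of 28, or 14.3%.

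**Figure D4:**
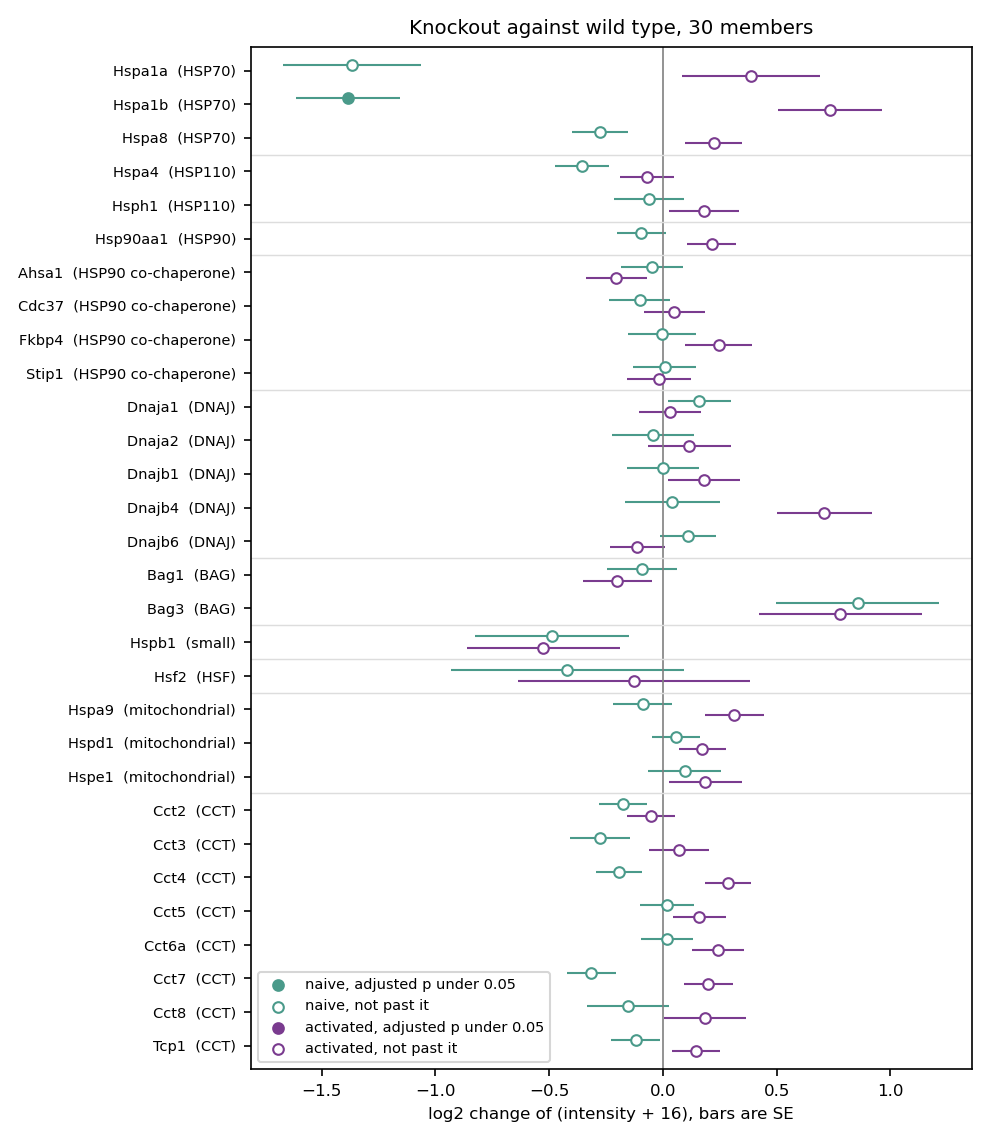
Log2 change of knockout over wild type for the 30 chaperone genes in naive (green) and activated (purple) cells. Points are limma estimates on the log2(intensity + 16) scale from 2 arrays a group, bars are standard errors, and filled points passed an adjusted p of 0.05. Only the naive point of Hspa1b is filled.

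Probe sets of 1 gene did not always move together. The 30 genes had 82 probe sets, of which 76 were tested and 20 genes had over 1. In wild type 37 of the 76 were higher and 7 lower on activation, 48.7% and 9.21% beside 17.4% and 21.8% of all tested probe sets. In knockout 42 were higher and 3 lower, 55.3% and 3.95% beside 18.2% and 23.5%. Probe sets were called in opposite directions for 3 genes in wild type, Hspa8, Dnaja2 and Cct7, and for 2 in knockout, Dnaja2 and Cct4. The second Cct7 probe set fell from 8497 and 7182 to 5196 and 5348 in wild type (log2 change -0.57, adjusted p 0.00376, limma), and in knockout it went from 7143 and 7077 to 6137 and 6013 (-0.23, adjusted p 0.169). A Cct4 probe set read 4681 and 2789 in naive and 1485 and 1644 in activated knockout (log2 change -1.20, adjusted p 0.0267). Other Cct4 probe sets rose, by up to 2.52 in wild type. The Actb 3'/5' ratio differed between the states, as given above, and its part in these opposite calls was not tested.

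**Figure D5:**
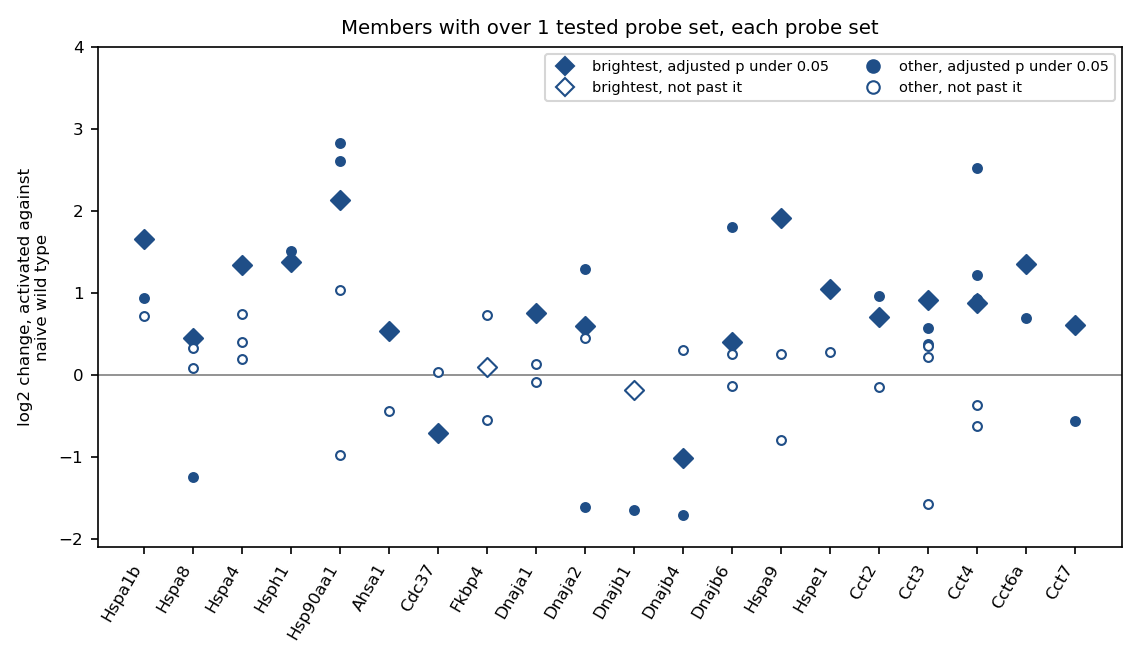
Log2 change of activated over naive wild-type cells for every tested probe set of the 20 genes with over 1. Diamonds are the brightest probe set of each gene, circles the others, and filled symbols passed an adjusted p of 0.05. Hspa8, Dnaja2 and Cct7 have filled symbols on both sides of zero.

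Other chaperones, co-chaperones and tubulin-folding factors gave a mixed picture. Of 65 such genes, 64 had a probe set of their own and 58 were tested. On activation 17 rose and 11 fell in wild type, or 29.3% and 19% of them, where the background over all genes was 21.3% and 24.1%. In knockout 19 rose and 17 fell, 32.8% and 29.3% where the background was 21.9% and 26.1%; without naive knockout replicate 1 the 36 calls became 23. The median log2 changes were 0.02 and 0.22. Among the genes past the threshold in wild type, the largest rises were Bag2, an inhibitor of the ubiquitin ligase CHIP, at 2.04 (adjusted p 4.57e-05, limma), Hspa4l, another HSP110 gene, at 1.72 (adjusted p 0.000221), the prefoldin gene Pfdn4 at 1.70 (adjusted p 6.6e-06) and Cacybp, which binds SIAH1, at 1.63 (adjusted p 5.26e-06). The largest falls past the threshold were the axonemal DNAJ gene Dnajb13 at -2.62 (adjusted p 0.000563), Pfdn5 at -2.58 (adjusted p 8.81e-07), the mitochondrial iron-sulfur co-chaperone gene Hscb at -2.13 (adjusted p 1.17e-05) and the tubulin cofactor gene Tbcc at -1.37 (adjusted p 0.000739). Prefoldin hands actin and tubulin to the chaperonin, and its subunit genes did not follow the CCT genes as a group. Pfdn4 went from 842 and 790 to 2678 and 2701 in wild type, while Pfdn5 went from 7436 and 6505 to 1123 and 1185. By genotype 0 of 58 passed in naive cells, 0 in activated cells and 0 in the difference (limma), with 7, 7 and 6 at an unadjusted p under 0.05. These are 12.1%, 12.1% and 10.3%, close to the shares over all genes.

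Heat shock element motifs were counted in the 250 bases before each RefSeq start. Promoters were at hand for 27 of the 33 genes. A motif of 2 units, GAANNTTC or TTCNNGAA, was present for 13 of the 27 genes, or 48.1%, beside 14.5% of 27025 genes. Each of these reads the same on both strands, so both strands were covered, and matches may overlap. The 13 were Hspa1a, Hspa1b, Hsph1, Hspb1, Hspd1, Hspe1, Dnaja1, Dnajb4, Dnajb6, Fkbp4, Cdc37, Cct2 and Cct5. A motif of 3 units was GAANNTTCNNGAA or TTCNNGAANNTTC, which are reverse complements of each other. It was present for Hspd1, Hspe1 and Dnajb6, 11.1% of the 27 beside 0.514% of all genes. Hspd1 and Hspe1 share 285 of 300 window bases, and the windows of Hspa1a and Hspa1b are identical at 247 of 250. Both shares count every gene, so the genes of either pair are not independent in them. By their brightest probe sets, genes with the motif of 2 units included ones that rose and ones that fell, such as Cdc37. Others passed in neither genotype, such as Hspb1 and Fkbp4. A match describes letters in the window, not binding.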

How the data were processed

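RNA abundance was measured on 8 Affymetrix arrays with One Cycle labelling, per the labels' protocols. The deposited values are linear intensities, 1 for each probe set on each array, that the authors made with MAS5 (version not given), per the submitters' processing notes. The number of arrays limits the precision. Groups came from the sample titles. Symbols came from the platform annotation (34958 probe sets with 1 symbol, 34754 of them matched to RefSeq genes of GRCm38.p6). Intensities were taken as log2(intensity + 16), so log2 changes of dim genes are understated. A probe set was tested if at or above the array median on at least 2 of 8 arrays, without the 64 controls (27348 of 45101). One model with 4 group means was fitted in R 4.3.3 with limma 3.58.1 (lmFit, eBayes with trend, 4 residual and 6.67 prior degrees of freedom) and p-values were two-sided and Benjamini-Hochberg adjusted within a contrast at 0.05. The fit was tested on simulated data. Folds are ratios of mean intensities. Genes are named by their brightest probe set. Per-array values are given for genes past the threshold in a genotype contrast, the 8 largest rises and falls in wild type among those past it, Hspa1a, Hspa1b, Hsf2 and genes with probe sets called in opposite directions, and others were added after their values were seen. Of the other chaperones the 4 largest rises and falls in wild type among those past the threshold are named, and Hspb11 was named after its values were seen. Members and lists were chosen with earlier results of these data known. Alternatives were other offsets, scalings, filters, variance models, probe set choices and leaving out each array. Same-numbered replicates did not deviate together (correlations of -0.17 to 0.069 over 6 pairs of groups), so the numbers were not taken as pairs.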

Additional observations from a re-analysis of the deposited data

How the results depend on the processing

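Of 49 activation calls (25 in wild type, 23 in knockout and the dimmer Dnajb1 probe set), 32 passed in every alternative tried. With the mean over all tested probe sets of a gene, Hspa8 reversed in wild type to -0.094 (adjusted p 0.505, limma) and Cdc37 in knockout to 0.0073 (adjusted p 0.984), since their dimmer probe sets moved otherwise; the members' median then was 0.60 in wild type and 0.63 in knockout. The median was 0.99 and 1.16 with each array centred on its median, 1.19 in knockout without probe sets that may cross-hybridise, and under quantile normalization 0.82 for activation in knockout, 0.051 for the genotype effect in activated cells and 0.027 for the difference between states. Median centring moved the median of all probe sets by 0.10 for genotype in naive cells, 0.19 for activation in wild type and 0.12 in knockout, and quantile normalization by 0.12 in each activation contrast. The cause was not tested. The count of members called in naive cells was 0 with median centring, with eBayes without a trend, with a fit to the 4 arrays of the comparison and with the replicate number as a block (0 called, against 1 with the block crossed). The block changed no other member count by over 1.5 times. The count for the difference between states was 1, Hspa1b, with an offset of 64 and without cross-hybridising probe sets. A fit to the 4 arrays called 1 member, Hspa1b, and 1 other chaperone, Hspb11, in activated cells. Leaving out each array in turn gave 20 to 25 members called for activation in wild type, 20 to 23 in knockout, 0 to 1 for genotype in naive cells and 0 to 1 for the difference; among other chaperones, it gave 23 to 30 in wild type and 23 to 37 in knockout, with the 23 without naive knockout replicate 1. Members' medians then ranged from 0.70 to 0.90, 0.96 to 1.10, -0.17 to -0.052, 0.12 to 0.21 (genotype, activated) and 0.16 to 0.28 (difference). A group left with 1 array was assumed to vary like the others. With 2 arrays a group, small genotype effects were not detectable.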
